A study of Mus musculus with 20 samples.

Results

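The regions described here were stretches of the mouse genome that carried a peak of histone H3 lysine 27 acetylation (H3K27ac) in RANKL-treated cells and no peak in untreated cells or in cells given RANKL with a BET inhibitor. Consensus regions were stretches covered by at least 2 of 6 peak lists, namely replicates 1 and 3 of each of those 3 groups, merged where they touched. A region was kept where both RANKL lists overlapped it by at least 1 bp and none of the other 4 lists did. This gave 331 of 18531 consensus regions (1.79%), called RANKL-only regions below. The regions were chosen by the presence of peaks in the 6 lists, so presence and peak values in the 6 lists are given as descriptions, without a test.

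H3K27ac marks active promoters and enhancers. BET proteins bind acetylated histones through their bromodomains and help to recruit the transcription machinery, and I-BET compounds occupy these bromodomains. RANKL is the cytokine that drives cells of the monocyte lineage towards osteoclasts, the cells that resorb bone, and acts through NF-kB, AP-1 and NFATc1. The cells were RAW264.7, an established mouse macrophage line used as an osteoclast precursor model, although the source field of the labels reads bone marrow. Untreated cells were compared with cells given RANKL at 50 ng/ml for 4 h and with cells given RANKL at the same dose together with I-BET at 500 nM for 4 h. A single further library, numbered 3, came from cells given I-BET alone for 4 h. No genetic change is labelled in any group, and one established line means that all libraries share one cell source. The labels state no separate cultures for the replicates.

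The 6 lists held between 13613 and 17794 peaks, and 16.1 and 19.5 Mb were covered in untreated replicates 1 and 3, against 23.7 and 25.9 Mb with RANKL and 23.0 and 20.6 Mb with RANKL+I-BET. The lists hold no read counts, so depth is unknown. RANKL replicate 2 stood apart, with 141905 peaks over 184.6 Mb and peaks at the gene ends of 16 of 18 marker genes of tissues not in the culture, where every other list had 0. Untreated and RANKL+I-BET replicate 2 were short (7.79 and 3.44 Mb). Among 14 macrophage marker genes, between 10 and 12 had a peak at a gene end in each of the 6 lists, as did 1 or 2 of 14 lymphocyte markers and 0 of 14 fibroblast and osteoblast markers. Acetylation in fewer cells and less acetylation per cell cannot be told apart in such bulk lists.

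Of the RANKL-only regions, 22 overlapped a listed promoter, that is the window from 250 bases before to 50 after an annotated transcription start, and 7 such windows lay wholly inside a region. Of these, 4 are printed to show what such promoters look like, 5′ to 3′ on the strand of the gene (RefSeq, GRCm38.p6). They belong to Sp100, an interferon-induced nuclear body protein (chr1:85649738-85650037, plus strand), Traf4, a TRAF family adaptor (chr11:78165501-78165800, minus strand), Nrp1, a receptor for semaphorins and VEGF (chr8:128358823-128359122, plus strand), and Arhgap18, a GTPase-activating protein (chr10:26772262-26772561, plus strand). Capitals mark GGGCGG, the core of the GC box bound by SP1, and TGANTCA, the AP-1 site, on either strand. These genes were chosen after their values were seen.
Sp100: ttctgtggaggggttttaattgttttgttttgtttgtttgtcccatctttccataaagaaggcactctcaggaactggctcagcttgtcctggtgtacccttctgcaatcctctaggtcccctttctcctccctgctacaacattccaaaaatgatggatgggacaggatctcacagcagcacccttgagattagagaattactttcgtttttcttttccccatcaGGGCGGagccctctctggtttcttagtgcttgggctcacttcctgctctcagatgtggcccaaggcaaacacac
Traf4: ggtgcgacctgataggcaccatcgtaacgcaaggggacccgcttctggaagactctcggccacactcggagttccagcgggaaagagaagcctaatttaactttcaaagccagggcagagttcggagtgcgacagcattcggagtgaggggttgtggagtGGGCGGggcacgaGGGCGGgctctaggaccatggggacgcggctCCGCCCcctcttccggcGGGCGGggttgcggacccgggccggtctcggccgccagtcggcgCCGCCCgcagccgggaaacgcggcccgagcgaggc
Nrp1: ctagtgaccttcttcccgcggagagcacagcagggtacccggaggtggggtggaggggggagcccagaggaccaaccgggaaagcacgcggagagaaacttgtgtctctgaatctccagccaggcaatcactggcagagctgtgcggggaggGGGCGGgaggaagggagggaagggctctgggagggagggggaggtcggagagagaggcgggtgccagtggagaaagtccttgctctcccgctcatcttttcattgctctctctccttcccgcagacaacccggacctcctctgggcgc
Arhgap18: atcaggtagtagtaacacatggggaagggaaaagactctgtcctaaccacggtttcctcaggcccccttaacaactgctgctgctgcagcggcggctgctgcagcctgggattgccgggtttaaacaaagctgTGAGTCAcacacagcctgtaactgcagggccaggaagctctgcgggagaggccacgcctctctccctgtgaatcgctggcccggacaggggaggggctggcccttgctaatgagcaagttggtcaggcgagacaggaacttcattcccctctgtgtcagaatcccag

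Sp100 and Nrp1 show 1 GC box each, Traf4 shows 5, and Arhgap18 shows an AP-1 site and no GC box. Over the 24 promoter windows (23 genes) reached by RANKL-only regions, GGGCGG was found in 19 (79.2%), against 46.2% of 21263 listed promoters of protein-coding genes and 67.9% of the 8231 reached by any consensus region. It was in 63.7% of the 91 windows reached by regions that both RANKL and both RANKL+I-BET lists held and no untreated list did. The windows of Per3 and Gm38529 overlap and were reached by 1 region, and those of Lpar1 and Rps6ka1 were reached over 1 and 5 bp only. TGANTCA was found in 1 of the 24 (4.17%), against 6.99% of listed promoters, and the E-box CACGTG in 2 (8.33%), against 7.84%. Both strands were searched for each motif. The NF-kB motif, the interferon-stimulated response element and the letters of the PU.1 site (GAGGAAGT) and of the cyclic AMP element (TGACGTCA) were in 0 of the 24 windows, against 1.29%, 3.35%, 3.13% and 2.23% of listed promoters. A match describes letters in the window only. At Sp100 the RANKL-only region was 724 bp wide (chromosome 1, 85649670 to 85650393) with a fold enrichment over the caller's local background of 3.01 and 3.22 in RANKL replicates 1 and 3. Whether such folds belong to the peaks they are listed with is uncertain, since they hardly repeat between replicates at any kind of region. At Traf4 the values were 2.09 and 5.67, at Nrp1 2.18 and 2.19, and at Arhgap18 2.70 and 2.74. RANKL replicate 2 also held all 4, with folds of 5.37, 4.91, 7.10 and 1.70 in that order, and the I-BET library held none of them. Untreated replicate 2 held the Arhgap18 region (fold 3.08).

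The first comparison asks how often RANKL-specific presence occurred beside the other patterns the labelled groups allow. Held by both lists of one group and by no other list were 331 regions for RANKL, 23 for untreated cells and 81 for RANKL+I-BET. A further 292 were held by both RANKL and both RANKL+I-BET lists but by no untreated list, and are called gained and kept below. Both untreated and both RANKL+I-BET lists, without RANKL, held 7 regions, and both untreated and both RANKL lists, without RANKL+I-BET, held 42. All 6 lists shared 9553 regions, and 8202 were split between the 2 lists of at least 1 group. Of 1121 regions held by both RANKL and neither untreated list (6.05% of all), 331 (29.5%) were in no RANKL+I-BET list, 292 (26.0%) in both, 434 in replicate 1 alone and 64 in replicate 3 alone. Of 572 held by both RANKL and neither RANKL+I-BET list (3.09% of all), 199 were in 1 untreated list and 42 in both.

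The 2 RANKL lists covered the most sequence of the 6, so the counts were also taken at one covered length. With each list reduced to its peaks of highest -log10 p until all covered 16.1 Mb, 237 regions were RANKL-only, 264 were untreated-only and 149 were RANKL+I-BET-only. At that length 467 regions were held by untreated and RANKL+I-BET lists without RANKL and 2085 by all 6 lists. RANKL-only regions outnumbered untreated-only ones in the lists as deposited and not at one covered length. The cut ranked peaks by -log10 p, which hardly repeats between replicates (r from 0.07 to 0.10 at regions held by all 6 lists). Untreated replicate 1, the shortest list, lost no peaks. A peak shared by several lists could be cut from some of them, and regions held by all 6 lists fell from 9553 to 2085. The part of list length in these counts was therefore not tested. RANKL+I-BET replicate 1 decided the most of the single lists in the absence rule, since without it 765 regions qualified. Leaving out untreated replicate 1, untreated replicate 3 or RANKL+I-BET replicate 3 gave 436, 425 and 395. With 1 RANKL list alone, the peaks that overlapped none of the 4 other lists numbered 1360 in replicate 1 and 1243 in replicate 3, so most RANKL-specific peaks of either list were not shared by the other. Compared only with the lists of the same replicate number, 1813 of 17794 RANKL peaks (10.2%) in replicate 1 and 2713 of 16917 (16.0%) in replicate 3 overlapped neither the untreated nor the RANKL+I-BET list. A design of 2 against 2 libraries cannot reach a two-sided exact permutation p under 0.05, and no p is given.

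**Figure D1:**
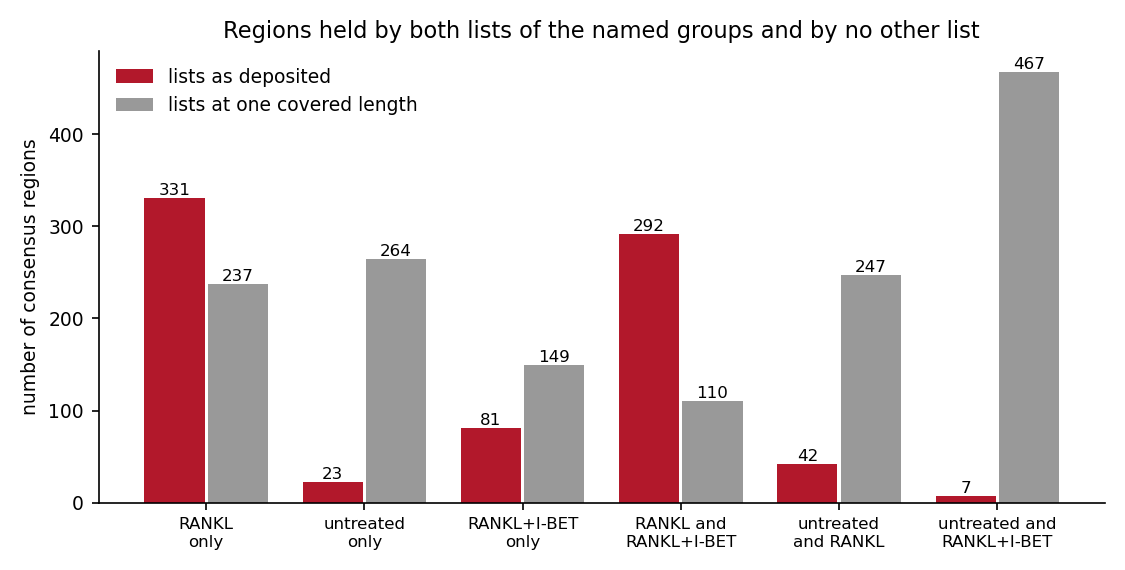
Number of consensus regions (vertical axis) held by both lists of the named groups and by no other of the 6 lists, as deposited (red) and after every list was cut to the same covered length (grey). As deposited RANKL-only regions number 331 against 23 untreated-only, and at one covered length 237 against 264. The cut kept peaks of highest -log10 p, a value that hardly repeats between replicates.

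RANKL-only regions were narrow. Their median width was 258 bp (quartiles 162 and 447 bp, from 2 to 1422 bp), against 788.5 bp for gained and kept regions and 1151 bp for all consensus regions. Untreated-only and RANKL+I-BET-only regions were narrow too, with medians of 169 bp (23 regions) and 290 bp (81 regions). The rule sets part of this, because a region held by 2 lists is only the overlap of their peaks, while more lists can widen it. The RANKL peaks behind them had median widths of 448 bp in replicate 1 and 709 bp in replicate 3, against 690 and 693 bp at gained and kept regions and 1498 and 1621 bp at regions held by all 6 lists. In 269 of 331 the overlap was at least 50% of the narrower peak, while 45 regions were under 100 bp and 6 were 1 kb or wider. The widest lay inside Pik3r5, a regulatory subunit of a phosphoinositide 3-kinase (1422 bp), inside Apbb1ip, a Rap1 effector in integrin activation (1261 bp), beside Polr3e, an RNA polymerase III subunit (1233 bp), inside Syne1, which links nucleus and cytoskeleton (1215 bp), and at the start of Nrp1 (1021 bp). The Pik3r5 region lay 9 bp from an untreated or RANKL+I-BET peak. It was part of a 5328 bp RANKL replicate 3 peak that reached such a peak.

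Fold enrichment had a median of 3.04 in RANKL replicate 1 (from 1.06 to 12.03) and 2.45 in replicate 3 (from 1.10 to 7.12). The median -log10 p was 4.58 and 4.78. Gained and kept regions had medians of 3.06 and 2.41 for fold, and regions held by all 6 lists had 3.18 and 2.59. In 124 of 331 (37.5%) the -log10 q was under 2 in at least 1 of the 2 lists, and in 35 it was 5 or more in both. Of all peaks, 17.6% in RANKL replicate 1 and 15.8% in replicate 3 had a -log10 q under 2. The 2 counts were not taken over other regions, so whether they are particular to RANKL-only regions is unknown. The folds of a region in the 2 replicates hardly ran together (Pearson r of log2 fold 0.08, Spearman coefficient 0.04, over 331 regions that share both libraries). The same held at the 9553 regions held by all 6 lists (r = 0.08 for fold and 0.10 for -log10 p), where the covered length per region did run together (r = 0.84). Within every list peak width and -log10 p were also nearly unrelated (Spearman coefficient from 0.05 to 0.13 over the 10 lists). The covered length of a region thus repeated between libraries better than its deposited height, and whether each deposited height belongs to the peak it is listed with could not be checked from the lists. Every fold and -log10 p given here, and the order of regions by height, carries that doubt.

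Just inside the rule by -log10 q were regions near Rasa1 (0.572 in replicate 1 and 1.10 in replicate 3), in Tulp4 (0.730 and 1.49), in Pmm1 (0.733 and 1.67), in Eif4e3 (0.913 and 0.921) and near Arl8b (4.90 and 0.935). Just outside were 5 regions held by both RANKL lists and touched by 1 other list over few bases. They lay in Ehbp1 (43 bp in RANKL+I-BET replicate 3), in Nsmce2 (74 bp in untreated replicate 3), near Lcp2 and in Ankdd1a (84 and 86 bp in RANKL+I-BET replicate 1) and in Dlgap1 (87 bp in untreated replicate 3). In all, 697 regions were held by both RANKL lists and exactly 1 of the other 4, 434 of them by RANKL+I-BET replicate 1.

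**Figure D2:**
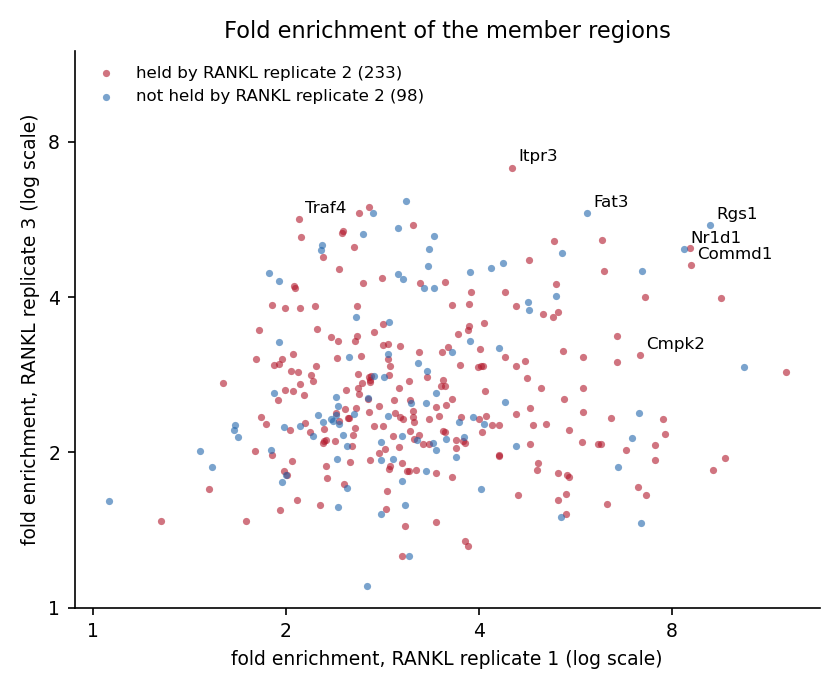
Fold enrichment over local background of each of the 331 RANKL-only regions in RANKL replicate 1 (horizontal) and replicate 3 (vertical), both on log scales, coloured by presence in RANKL replicate 2. The points form no trend (Pearson r 0.08), and regions held by replicate 2 (233) lie among those not held (98).

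The 15 regions with the highest lower value of -log10 p over the 2 RANKL lists lay at genes of several kinds. The first was a 38 bp overlap inside Nr1d1, which encodes the circadian repressor REV-ERB alpha (chromosome 11, 98773229 to 98773266). Its fold was 8.36 and 4.95 in RANKL replicates 1 and 3. Peaks of untreated replicate 1 and RANKL+I-BET replicate 1 began 260 and 103 bp away, and its own replicate 3 peak reached one of the 4 other lists. A second region, in the neighbouring Thra, the thyroid hormone receptor alpha gene (98742029 to 98742124), had folds of 5.23, 7.70 and 5.13 in RANKL replicates 1, 2 and 3 and of 2.05 with I-BET alone.

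Signalling genes made up part of the 15. Rgs1, a regulator of G protein signalling, had a region of 351 bp, 714 bp from the gene (chromosome 1, 144243604 to 144243954). Its folds were 9.16 and 5.52, and untreated replicate 1 had a peak 470 bp away. Itpr3, an IP3-gated calcium release channel, had a region 4955 bp from the gene (chromosome 17, 27051518 to 27052046) with folds of 4.51, 8.67 and 7.12 in RANKL replicates 1, 2 and 3. Untreated replicate 2, which the rule did not use, also held the Itpr3 region. Notch2, a cell surface receptor, held a 222 bp region (chromosome 3, 98087323 to 98087544) with folds of 4.57, 2.63 and 3.85 in the RANKL replicates, and the nearest peak of the 4 other lists was 17937 bp away. Cdc42se2, a small effector of CDC42, held one of 183 bp with folds of 5.39 and 4.86 that RANKL replicate 2 lacked.

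Others of the 15 lay at genes of transcription, metabolism and adhesion. Nelfa, a subunit of the negative elongation factor that pauses RNA polymerase II, was 17632 bp from a 64 bp region with folds of 8.53 and 4.98. Med13l, a subunit of the Mediator kinase module, was 45916 bp from a region with folds of 7.26 and 4.00. Pgm2, a phosphoglucomutase, carried a 258 bp region at its start (chromosome 5, 64093050 to 64093307) with folds of 6.21 and 5.15 and no peak of the 4 other lists within 136517 bp. It was the only consensus region within 25 kb of Pgm2. Regions inside Commd1, an inhibitor of NF-kB (8.55 and 4.61), Ext1, a heparan sulfate polymerase (5.22 and 3.66), Fat3, an atypical cadherin (5.90 and 5.82), Ankrd11, a chromatin regulator (7.19 and 4.50), and Cyhr1 (6.26 and 4.49) followed. Those nearest to Bod1, a regulator of chromosome biorientation (5.28 and 4.24), and Shcbp1l (4.77 and 3.92) completed the 15. The Commd1 region was a 90 bp overlap, 570 bp from an untreated replicate 3 peak. Peaks of untreated replicate 1 lay 890, 897 and 488 bp from the Ext1, Fat3 and Shcbp1l regions. The Shcbp1l region was part of a 6912 bp RANKL replicate 3 peak that reached another list. For Ankrd11, Cyhr1 and Bod1 the nearest peak of the 4 other lists was 9495, 3132 and 23029 bp away. RANKL replicate 2 held 9 of the 15, untreated replicate 2 held 2 and the I-BET library held 1, the Ankrd11 region (fold 3.18).

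In the lists as deposited, RANKL-only regions lay at gene ends less often than other regions by share. Within 1 kb of either end of a protein-coding gene lay 75 of 331 (22.7%), against 36.3% of gained and kept regions and 44.8% of all consensus regions. Inside a gene and away from its ends were 152 (45.9%, against 40.8% and 33.9%), between genes within 100 kb were 81 (24.5%, against 18.8% and 18.4%), and 23 (6.95%, against 4.11% and 2.80%) had no gene within 100 kb. With each region reduced to its midpoint, which takes its width out of the measure, 21.1% of RANKL-only, 34.6% of gained and kept and 40.2% of all regions lay within 1 kb. Away from chromosome 18, where no promoters were listed, an annotated start lay within 1 kb of 17.3% of RANKL-only regions and of 39.9% of all regions. Within 5 kb of a gene end the shares were 40.2% of RANKL-only, 47.6% of gained and kept and 56.2% of all regions. These shares were not tested, since regions are not replicates. With lists at one covered length the share at gene ends was 31.2%, and with a -log10 q of at least 5 in all lists it was 47.7%. The median distance to a gene end was 10756 bp.

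**Figure D3:**
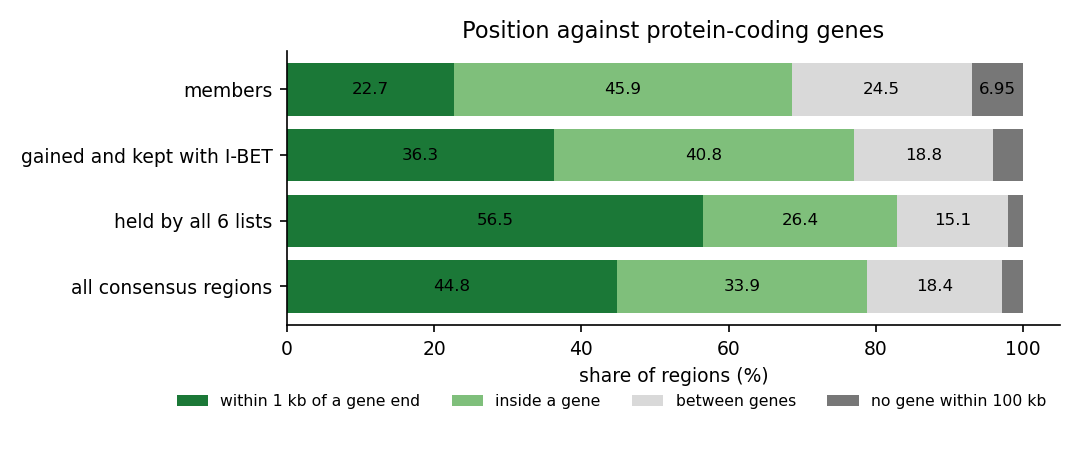
Share of regions (horizontal axis, percent) by position against protein-coding genes for RANKL-only regions (members), gained regions kept with I-BET, regions held by all 6 lists and all consensus regions. Gene ends take 22.7% of RANKL-only regions and 56.5% of regions held by all 6 lists.

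Some RANKL-only regions stood alone and others lay near a peak of an untreated or RANKL+I-BET list. The nearest peak of the 4 other lists was a median of 4652 bp away (from 1 to 1254916 bp), within 1 kb for 108 regions (32.6%) and over 10 kb away for 120 (36.3%). RANKL+I-BET replicate 1 had the closest peaks (median 7947 bp), followed by untreated replicates 1 and 3 (10849 and 12103 bp) and RANKL+I-BET replicate 3 (12520 bp). In 99 regions (29.9%) a RANKL peak behind the region itself reached a peak of the 4 other lists at another point, in 84 of them the peak of replicate 3. These regions were parts of longer RANKL peaks. Of the other 232, 72.8% were held by RANKL replicate 2 and 26.7% lay at gene ends. Within 25 kb of a region held by all 6 lists were 181 (54.7%), against 48.6% of gained and kept regions and 51.3% of the other regions held by some of the 6 lists.

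**Figure D4:**
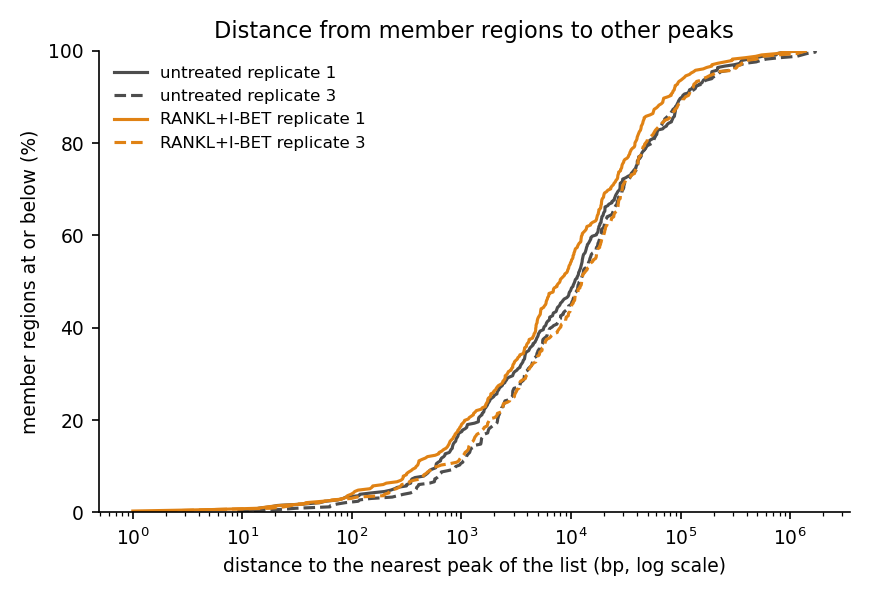
Share of the 331 RANKL-only regions (vertical axis, percent) with the nearest peak of an untreated or RANKL+I-BET list at or below a given distance (horizontal axis, bp, log scale). The 4 curves lie close together, with medians between 7947 and 12520 bp.

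The regions were nearest to 298 genes within 100 kb, and 10 genes had 2 regions each. Cdk6, a kinase of the G1 phase, had regions of 793 and 127 bp (chromosome 5, 3355551 to 3356343 and 3432361 to 3432487) with folds of 3.42 and 2.61, and of 2.48 and 2.43, in RANKL replicates 1 and 3. RANKL replicate 2 lacked the first and held the second at a fold of 10.3. Within 25 kb of Cdk6 were 18 consensus regions, 6 of them held by all 6 lists and 1 gained and kept with I-BET. Creb5, a factor of the CREB family, had its 2 regions 3974 and 13128 bp from the gene (chromosome 6, 53704339 to 53704802 and 53713493 to 53713767). Their folds were 3.51 and 2.20, and 4.02 and 2.94, and RANKL replicate 2 held both at 1.74 and 1.56. Near Creb5, too, 1 further region was gained and kept. Grb2, an adaptor between receptors and RAS, had one region inside (6.55 and 2.995) and one 2223 bp away (3.69 and 2.04), the second also held by the I-BET library at a fold of 3.38.

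Nrp1 had 2 regions, of 673 and 1021 bp at its start, that were the only consensus regions within 25 kb of the gene. One peak of RANKL replicate 3 (2756 bp) spanned both, so they are not independent. Apbb1ip had 2 among 16 regions, 8 of which all 6 lists held, and neither was in RANKL replicate 2 or the I-BET list. Both regions of Snx30, a sorting nexin, were in RANKL replicate 2 and in the I-BET list. The other genes with 2 regions were Lhfpl2, Tmed10, a cargo receptor of the secretory pathway, Tulp4 and Unc119, a lipid-binding trafficking protein. Further from any gene, 3 regions lay between 275588 and 398726 bp from Tex13c3 on chromosome X, and 1 lay 162851 bp from Prdm1, which encodes a repressor that favours osteoclast formation; these were picked out after their values were seen.

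Across 17 gene lists, 12 of the 282 listed genes that were nearest to any consensus region were nearest to a RANKL-only one (4.26%), against 298 of 9832 among all protein-coding genes (3.03%). With 0 to 2 genes in any list, no list can be told from that background. On the RANK and NFATc1 axis this was Creb5, 1 of 25. Among ITAM, calcium and calcineurin genes it was Itpr3, 1 of 26, and in the NF-kB pathway Commd1, 1 of 24. Of 21 osteoclast function genes near any region there were 2. Atp6v1c1, a subunit of the vacuolar proton pump, had a region within 1 kb of one end of the gene (chromosome 15, 38691609 to 38691770) with folds of 7.15 and 1.46 in RANKL replicates 1 and 3, and no other list held it. Cd47, the ligand of SIRP alpha, was 53482 bp from a region with folds of 3.98 and 2.93, and an untreated replicate 1 peak was 116 bp away. The 14 inflammatory cytokine and chemokine genes, 23 BET, P-TEFb and acetyl modifier genes and 12 mitochondrial biogenesis genes near any region had 0. Gained and kept regions were nearest to 2 of the 14 cytokine genes, Ccl4 and Il1rn. On the RANK axis they were nearest to 3 of 25, Nfatc1, Creb5 and Traf5. The most in any list were 4 of 27 macrophage identity and osteoclast repressor genes, Id1, Lyz2, Mef2c and Rbpj. Across all lists gained and kept regions were nearest to 19 of the 282 genes, against 272 of 9832 among all protein-coding genes. These counts were not tested.

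Cmpk2, a mitochondrial nucleotide kinase induced by interferon, was the 1 of 21 interferon response genes with a RANKL-only region. The region lay at the gene's start (chromosome 12, 26469265 to 26469594) with folds of 7.13, 2.06 and 3.09 in RANKL replicates 1, 2 and 3. No peak of the 4 other lists came within 1254916 bp, the largest gap of all 331, and neither the I-BET library nor the replicate 2 lists of untreated and RANKL+I-BET cells held it. Csf1r, the macrophage growth factor receptor, was the 1 of 27 macrophage identity genes and of 13 macrophage markers. Its region (chromosome 18, 61118925 to 61119153) had folds of 3.03, 5.67 and 1.91 in the RANKL replicates and 2.97 with I-BET alone, and it was 66 bp from a region held by all 6 lists. Mnt, a MAX partner that opposes MYC, was 1 of 20 in its list, with folds of 2.31 and 1.88. Of 18 housekeeping genes near any region there were 2 (11.1%), Actb and Eef1a1, beside 2 of 21 (9.52%) for osteoclast function. Actb and Eef1a1 were 18152 and 11514 bp from regions with folds of 7.29 and 1.65, and of 3.11 and 1.26. Cell cycle genes had Cdk6, 1 of 22, and the adhesion and cytoskeleton list had Actb, 1 of 24. The 1 of 3 fibroblast and osteoblast markers near any region was Runx2, through an 18 bp overlap whose replicate 3 peak reached an untreated peak 36 bp away. The 5 lymphocyte markers near any region had 0, and no marker of other tissues was near one.

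The lists that the rule did not use give the same measure in other libraries, with 1 library a group and so no test. RANKL replicate 2 held 233 of 331 RANKL-only regions (70.4%), against 87.5% of all consensus regions. Untreated replicate 2 held 12 (3.63%), against 46.0% of all, and RANKL+I-BET replicate 2 held 1 (0.302%), against 28.5%. In RANKL replicate 2 and not in untreated replicate 2 were 221 regions (66.8%), and 0 were the other way round. Over all consensus regions the same counts were 7912 (42.7%) and 210 (1.13%), and over gained and kept regions 200 (68.5%) and 1 (0.342%). The 3 lists differ widely in length, from 3.44 to 184.6 Mb, and the part of that in this result was not tested. Gained and kept regions were held by the same 3 lists at 88.4%, 20.2% and 8.56%. At gene ends RANKL replicate 2 held 68 of 75 RANKL-only regions (90.7%), inside genes 98 of 152 (64.5%), and with no gene within 100 kb 11 of 23 (47.8%). Shares by position were not computed over all consensus regions, so whether this order is particular to RANKL-only regions is unknown. The share of RANKL replicate 2 was 69.3% among the 166 regions at or above the median of lower -log10 p and 71.5% among the rest. The 10 strongest regions that RANKL replicate 2 alone of the 4 unused lists held lay at Nelfa, Pgm2, Cyhr1, Notch2, Commd1, Ext1, Med13l, Vps4a, an ATPase of endosomal sorting, Cdk18, a cyclin-dependent kinase, and Tmcc3. For the last 3 the folds in RANKL replicates 1, 2 and 3 were 5.04, 2.96 and 3.71, 4.79, 3.21 and 4.72, and 5.31, 2.45 and 3.74. The Vps4a region was a 35 bp overlap, 390 bp from an untreated replicate 3 peak. That of Cdk18 was 31 bp, 17 bp from a RANKL+I-BET replicate 1 peak. The replicate 3 peaks of both, and the replicate 1 peak of Cdk18, reached untreated or RANKL+I-BET peaks used by the rule. The replicate 2 folds of Vps4a and Cdk18 came from peaks of 3897 and 37023 bp.

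Cells given I-BET alone held 45 of the RANKL-only regions (13.6%), against 50.7% of gained and kept regions, 94.3% of regions held by all 6 lists and 69.7% of all regions. Of the 45, 37 were also in RANKL replicate 2. Their median fold in the I-BET library was 2.67, close to the 2.57 of regions held by all 6 lists. The strongest lay in Ankrd11, in Ankrd13b (9.55 and 3.98 in RANKL replicates 1 and 3 and 2.98 with I-BET), in Thra, in Alpk2 (3.88 and 4.09, and 1.96) and 2207 bp from Wfdc16 (4.72 and 3.01, and 2.16). At RANKL-only regions counted by their midpoint the shares were 65.9% in RANKL replicate 2, 1.81% in untreated replicate 2 and 10.9% in the I-BET library. Over all consensus regions the midpoint shares in the same lists were 79.7%, 28.4% and 62.8%. Gained and kept regions had 79.5%, 11.99% and 43.5%. In all, 186 regions (56.2%) were in RANKL replicate 2 and in none of the other 3 unused lists, and 90 (27.2%) were in none of the 4. These 2 shares were not computed over all consensus regions. RANKL replicate 2 covered 184.6 Mb, against 3.44 to 19.6 Mb in the other 3, so the 56.2% is no independent support.

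**Figure D5:**
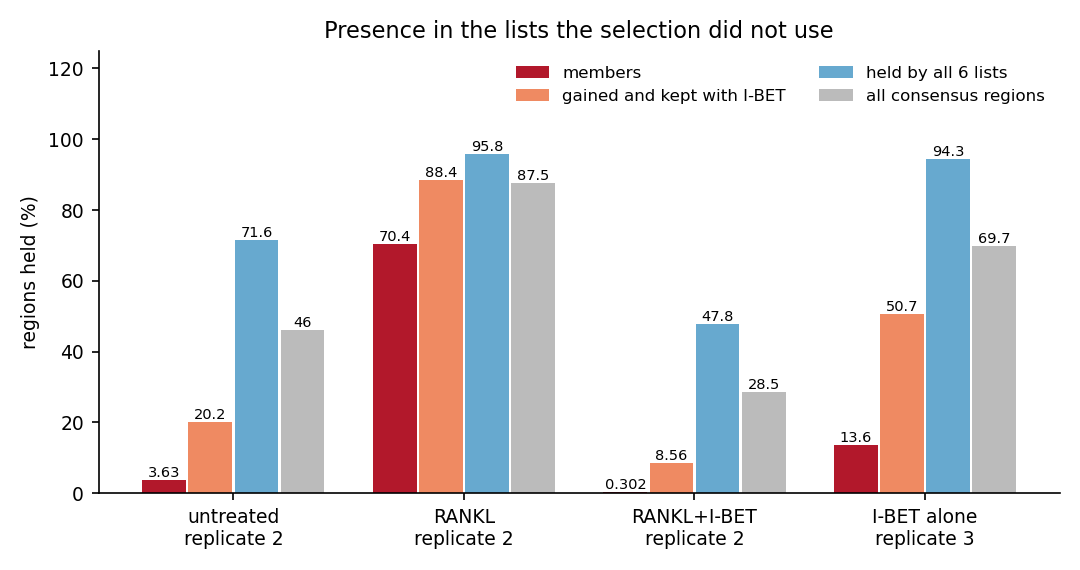
Share of regions held by each list that the selection did not use (vertical axis, percent), for RANKL-only regions (members), gained regions kept with I-BET, regions held by all 6 lists and all consensus regions. RANKL-only regions are held by 70.4% in RANKL replicate 2, 13.6% with I-BET alone, 3.63% in untreated and 0.302% in RANKL+I-BET replicate 2.

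The regions were spread over 20 chromosomes. Chromosome 11 held the most, 40 of its 1507 consensus regions (2.65%), and chromosome X had the highest share, 11 of 366 (3.01%). Chromosomes 19, 3 and 2 had the lowest shares, at 1.07%, 1.09% and 1.10%, and chromosome Y held 0 of 8.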

How the data were processed

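H3K27ac chromatin immunoprecipitation libraries were sequenced as single-end reads of 50 bp, per the labels. The submitters' processing notes name FastQC, Bowtie2 and MACS2 and the build mm10 (GRCm38), and tool versions are not given in the sources used here. Each of 10 deposited broad-peak lists belongs to 1 library, and 10 input samples were not analysed here. The layout was read from the values. The authors' whole-number score equals 10 times -log10 q. Fold enrichment, as deposited by the authors, is a linear ratio to local background, and the deposited p and q are on a -log10 scale. The lists give no counts, so depth and counting precision are unknown.

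Groups came from sample titles. Regions were built and compared in Python 3.11.15 with pandas 2.3.3 and numpy 2.4.6, and the code was tested on simulated lists. A region took the values of its overlapping peak of highest -log10 p. Genes were 21887 protein-coding genes of GRCm38.p6 (RefSeq), without strand, so distances run to either gene end. Promoter windows were listed for 17492 of them, none on chromosome 18. Of 379 listed genes 376 were found.

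Named were the 15 regions strongest in both RANKL lists, the 5 widest, genes with at least 2 regions, listed genes, 5 regions on either side of the rule, the 10 strongest held by RANKL replicate 2 alone of the unused lists and the 5 strongest held with I-BET. Other names were picked after seeing values. The regions and gene lists were chosen with earlier results of these data known. Other overlaps, thresholds, list lengths, consensus rules and left-out libraries were tried.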

Additional observations from a re-analysis of the deposited data

How the results depend on the processing

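No paired analysis was possible because the results come from no test that could take a block. Counted within a replicate number, without a test, 10.2% (replicate 1) and 16.0% (replicate 3) of RANKL peaks overlapped neither same-numbered list. The number of RANKL-only regions stayed within 1.5 times of 331 with 50% overlap (488), one covered length (237), regions covered by at least 1 list (231) or by 2 of the 10 lists (272), no peak of the 4 other lists within 1 kb (223), and RANKL peaks that reach no other list (232, chosen after seeing the data). It was 220 with replicate 2 included. A -log10 q of at least 5 in all 6 lists gave 696, and in the RANKL lists only 35. Leaving out 1 library gave between 395 and 1360. RANKL+I-BET replicate 1 and each RANKL list moved it by over 1.5 times, the latter because 1 list then suffices. The median width (258 bp) was 886 bp with the q threshold in all lists and 773 bp with regions covered by at least 1 list. It was 535.5 bp with regions covered by 2 of the 10 lists and 523 bp without RANKL replicate 1.

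The share held by RANKL replicate 2 (70.4%) was 87.8% with -log10 q of at least 5 in all lists, 76.8% at one covered length, 77.1% with regions covered by at least 1 list, 100% by construction with replicate 2 included, and between 62.1% and 79.7% without 1 library. The share held by untreated replicate 2 (3.63%) was 7.58% with 50% overlap, 51.4% with the q threshold in all lists, 8.86% at one covered length, 0.0% with replicate 2 included, 1.81% by midpoint (chosen after seeing the data) and between 2.57% and 9.54% without 1 library. RANKL+I-BET replicate 2 (0.302%) held 32.9%, 3.38% and 0.0% under the same q threshold, covered length and replicate 2 settings, 0.0% with the q threshold in the RANKL lists only, and between 0.235% and 3.79% without 1 library. The I-BET share (13.6%) was 18.2% with 50% overlap, 74.0% with the q threshold in all lists, 30.0% at one covered length and between 6.99% and 19.7% without 1 library. The q threshold and the covered length rest on deposited heights that hardly repeat between replicates, and the cause was not tested.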
